A study of Mus musculus with 18 samples.

Results

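The nuclei described here are the urothelial nuclei of the adult mouse bladder, 1016 of the 3472 nuclei in the 1 nuclei library of the study (29.3%, exact binomial 95% interval 27.8 to 30.8%). The nuclei were chosen by their own counts, so the genes that chose them are no finding. A nucleus was taken as urothelial when it had at least 500 unique molecular identifiers (UMIs, each counting 1 captured RNA molecule), when 13 keratin, uroplakin and epithelial genes made up at least 0.6% of its UMIs, and when 6 smooth muscle genes made up under 2%. The remaining 2456 nuclei are called the other nuclei below. The study profiled C57BL/6 mouse bladder by droplet sequencing of whole cells and of nuclei, by bulk RNA sequencing and on tissue sections. The nuclei came from bladders of 2 females and 2 males at 12 months of age. Whole-cell libraries used for comparison came from whole bladder: 1 library of 3 males at 22 months, 1 of 3 males at 3 months, 2 of 2 females and 2 males at 12 months, and 1 of 2 females and 2 males at 24 months. The male libraries also differ from these mixed-sex libraries in barcode length (14 against 16 bases) and in genes listed (27775 against 27998). Sex cannot be told apart from these differences. Another cell library, enriched for detrusor muscle, came from 2 females and 2 males at 14 months. Bulk libraries came from 12-month females, 3 of intact bladder and 3 of bladder taken through dissociation. The labels name no transgene, deletion or drug treatment in any of these groups, and each droplet library pooled animals, so n counts libraries and not mice.

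The urothelium is the layered epithelium that lines the bladder and keeps urine apart from the blood. Basal cells rest on the basement membrane and carry the keratins Krt5 and Krt15 and the transcription factor Trp63, intermediate cells lie above them, and large umbrella cells face the lumen, where uroplakins are assembled into rigid membrane plaques and tight junctions seal the sheet. A nucleus holds newly made and retained RNA, whereas a whole cell is dominated by processed RNA in the cytoplasm.

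Urothelial nuclei had a median of 1434.5 UMIs and 977 genes, other nuclei 1051 UMIs and 680 genes, and the urothelial nuclei held 39.2% of the 5197910 UMIs of the library. Markers of most other cell types were lower in them than in other nuclei. For smooth muscle this was set by the choice of nuclei, since 6 of the 12 genes of its list were used by the rule. The 6 smooth muscle genes outside the rule stood at 607 CPM (UMIs per 1000000 UMIs of the summed nuclei) in urothelial and 5226 in other nuclei, and 6 of 6 were 2-fold or more lower, beside 16.3% of all genes. The limit on muscle genes acted on the same nuclei, so this count is a description too. All 10 fibroblast genes were also 2-fold or more lower, with 1638 against 6003 CPM, and 5 of 8 blood endothelial genes, with 88.3 against 237. Macrophage genes summed to 53.9 against 226, lymphatic endothelial genes to 23.5 against 248, Schwann cell or neuron genes to 21.6 against 107, and pericyte genes to 192 against 304. The 6 pericyte genes went both ways, with 2 that were 2-fold or more higher and 4 lower. B or plasma cell genes were near equal, at 23.5 and 26.9, and T or NK genes stood at 4.90 against 3.17 CPM. The mesothelial list stood higher in urothelial nuclei, at 1367 against 440. It holds the rule gene Krt19, and without it the list stood at 212 against 189, of which Upk3b, a uroplakin, made up 193 and 98.2. The other 4 mesothelial genes (Msln, Lrrn4, Wt1 and Muc16) were each 2-fold or more lower. No list of another cell type was at 0 in the urothelial nuclei as a whole. Malat1, a long non-coding RNA kept in the nucleus, made up 10.5% of UMIs in urothelial and 16.9% in other nuclei, ribosomal protein genes 8.15% and 4.41%, and mitochondrially encoded genes 0.95% and 1.41%. Among 635 nuclei with at least 4% muscle UMIs, called muscle-rich below, the 13 rule genes still made up 0.185% of UMIs. RNA of the rule genes was thus present in muscle-rich nuclei as well, its source there was not tested, and every ratio to the other nuclei below contains that level. Of the 3472 nuclear barcodes, 3 also occurred in the detrusor-enriched library and 0 in the other cell libraries, and no urothelial barcode was shared.

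The 13 genes that chose the nuclei are given as a description, with no test. Krt15 stood at 2057 CPM in urothelial and 320 in other nuclei and had a UMI in 81.4% and 26.8% of nuclei. With every nucleus thinned to 500 UMIs those shares were 57.5% and 14.3%, and 13.4% in muscle-rich nuclei. Upk3a, a uroplakin that anchors the apical plaques, stood at 1323 against 242 CPM and had a UMI in 74.1% and 24.1% of nuclei (42.8% and 11.8% after thinning). Its partner Upk1b, a tetraspanin, stood at 704 against 149, with a UMI in 56.4% and 14.9% (26.1% and 7.61% after thinning). Epcam, an epithelial adhesion protein, stood at 201 against 28.2 CPM, with a UMI in 28.7% and 3.34% of nuclei (8.66% and 1.26% after thinning). Over the 13 genes the ratio ran from 3.69 for Perp, a desmosome-associated protein, to 7.12 for Epcam.

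The share of the 13 genes was a continuum at the limit. Within the urothelial nuclei it ran from 0.601% to 4.38% with a median of 1.04%, and the number of UMIs behind it had a median of 15 per nucleus. Just inside the limit, at 0.6 to 0.7%, lay 121 nuclei, of which 14.0% had an Epcam UMI. Just outside, at 0.5 to 0.6%, lay 137 nuclei, of which 11.7% had one. Epcam is a gene of the rule, so these shares are a description. The nuclear receptor gene Pparg, outside the rule, had a UMI in 34 of the 121 and 24 of the 137 nuclei. Their median depths were 1322 and 1112 UMIs. A further 119 nuclei met the epithelial limit and were left out by the muscle limit. Their median share of the 6 muscle genes was 3.60%, against 0.513% in the urothelial nuclei.

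Outside the 13 genes, Ocln, Cldn8, Cers3 and St8sia6 were among the genes with the highest ratio of urothelial to other nuclei. Across 11475 genes with 30 or more UMIs, 15.1% were 2-fold or more higher and 16.3% were 2-fold or more lower in urothelial nuclei, and the 15 highest are a description of the same contrast. Ocln, the tight junction protein occludin, had 52 UMIs in urothelial and 7 in other nuclei, a ratio of CPM of 11.5 (exact interval 5.20 to 30.02). Cldn8, a claudin, stood at 37.7 against 4.75 CPM. Cers3, a ceramide synthase that makes very long chain ceramides, had 167 and 27 UMIs, a ratio of 9.58 (6.35 to 14.97), and a UMI in 13.5% of urothelial, 1.10% of other and 0.157% of muscle-rich nuclei. The sialyltransferase gene St8sia6 had 364 and 73 UMIs and a UMI in 23.0% of urothelial nuclei.

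The rest of the 15 ranged from 7.84-fold to 14.3-fold and each had a UMI in 3.44 to 9.65% of urothelial nuclei. Tmem30b encodes a partner of lipid flippases, Slc52a3 a riboflavin transporter, Fut4 a fucosyltransferase, Cyp3a57 a cytochrome P450, and Ovol1 a transcriptional repressor of epithelia. Ksr2 and Cnksr1 encode scaffolds of the Ras and Raf pathway. Tmem102, Sowaha, Ankrd22 and the antisense RNA Hoxb3os complete the group; whether the counting kept strand is not given in the sources used here, so Hoxb3os cannot be told apart from overlapping Hox transcripts. Summed, the 15 genes stood at 667 CPM in urothelial, 77.6 in other and 29.9 in muscle-rich nuclei. Their median ratio was 7.85, which choosing the highest ratios sets, and that of the 13 rule genes, which were not ranked, was 5.44.

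At the other end, the 5 lowest genes were Carmn, Sgcd, Hmcn1, Ryr3 and Lrrc7. Carmn, a long non-coding RNA of smooth muscle, had 81 UMIs in urothelial and 8967 in other nuclei, 71.5-fold lower in CPM. Sgcd, the delta-sarcoglycan of the dystrophin complex, had 11 against 1003 UMIs. Hmcn1, an extracellular matrix protein, had 2 against 671 UMIs, a ratio of 0.00461 (0.000558 to 0.0167). Ryr3, a calcium release channel, had 1 against 283 and Lrrc7, a scaffold protein, 2 against 248.

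**Figure D1:**
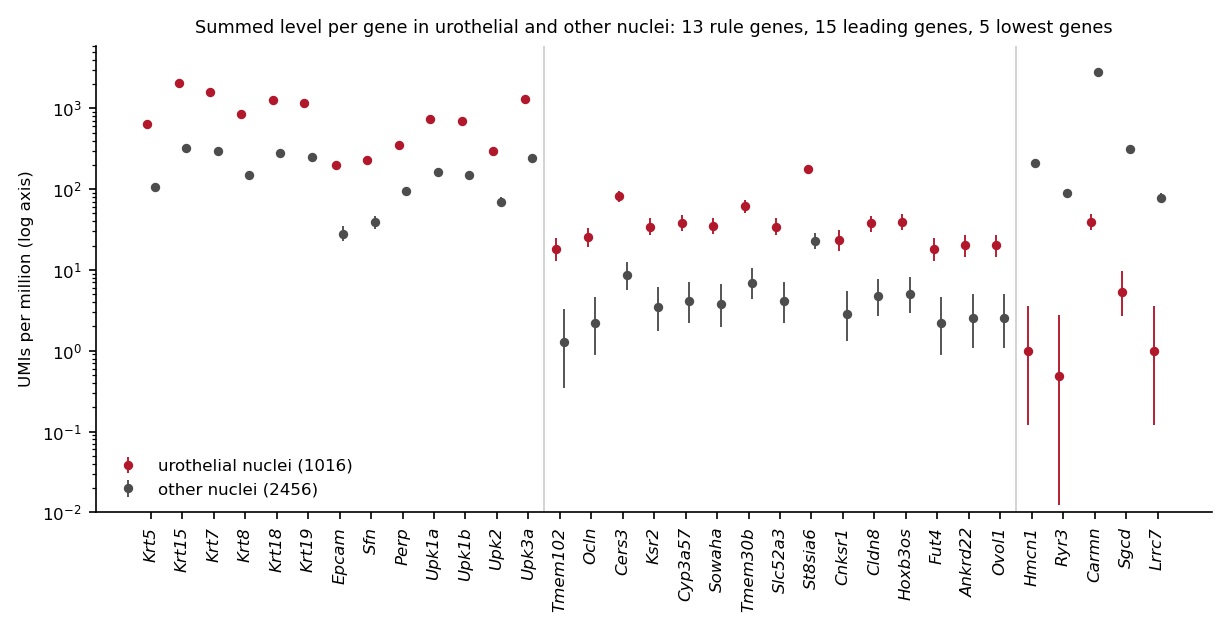
Summed CPM (log axis) in 1016 urothelial nuclei (red) and 2456 other nuclei (grey) for the 13 rule genes, the 15 leading genes and the 5 lowest genes, from left to right; bars are exact Poisson 95% intervals that cover counting error only. Cers3 stands at 81.9 in urothelial and 8.55 in other nuclei, and Carmn at 39.7 and 2839.

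Gene groups of urothelial biology were compared with all genes by counts. Among the transcription factors, 22 of 28 with 30 or more UMIs were 2-fold or more higher in urothelial nuclei and 2 were lower, with a median ratio of 4.53 against 1.13 for all genes. Foxq1, a forkhead factor, stood at 1583 against 318 CPM, and Gata3, a regulator of luminal epithelia, at 984 against 183. Trp63, the basal epithelial factor, stood at 745 against 162, and Klf5, an epithelial factor of the same family as Klf4, at 597 against 115. The nuclear receptor Pparg, which drives urothelial differentiation, stood at 254 against 49.1 CPM, and Grhl3, a factor of barrier epithelia, at 60.8 against 10.1. Gata6 and Irf1 were the 2 lower members, at ratios of 0.44 for each.

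The barrier and its anchoring followed. Of 28 cell junction and adhesion genes, 23 were 2-fold or more higher and 1 was lower, with a median ratio of 3.77. Cdh1, the epithelial cadherin, stood at 262 against 42.1 CPM, the claudin Cldn4 at 283 against 53.5, and Dsp, which links desmosomes to keratin, at 204 against 42.1. Pkp2, a desmosomal protein, was the member that was lower, at 16.7 against 60.2. In the basement membrane and hemidesmosome group 9 of 16 were higher and 1 lower. Lamb3, a chain of the laminin under basal cells, stood at 101 against 24.7, and Itgb1, the integrin beta chain shared by most cell types, at 226 against 699 CPM.

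Genes that carry uroplakin plaques to and from the surface were higher in 12 of 16 cases and lower in 0, with a median ratio of 4.26. Mal, a membrane raft protein that sorts cargo to the apical face, stood at 872 against 156 CPM. Snx31, a sorting nexin of uroplakin turnover, stood at 357 against 58.3, and Rab27b, a GTPase of fusiform vesicles, at 421 against 94.7. Vamp8, a vesicle fusion protein, was at the low end of those that were higher, with 162 against 73.1.

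In the growth factor and signalling group 13 of 22 were 2-fold or more higher and 3 were lower. Among the ligands, Shh, the hedgehog signal that the urothelium sends to the stroma, stood at 239 against 42.4 CPM, the Wnt signal Wnt4 at 264 against 61.1, and the Notch ligand Jag2 at 258 against 52.9. Among the receptors, the Notch receptor Notch1 stood at 396 against 87.4 and the fibroblast growth factor receptor Fgfr3 at 113 against 28.5. The stromal ligand Bmp4 was 4.75-fold lower. Of the ion channels, transporters and pumps, 9 of 16 were higher and 1 lower: Aqp3, a water and glycerol channel, stood at 733 against 127 CPM, and Trpv4, a cation channel opened by stretch and osmotic change, at 172 against 43.1. Piezo2, a mechanically opened channel of sensory cells, had 4 UMIs in the urothelial nuclei and was the lower member.

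Detoxification and redox genes were among the groups that stood above the background. Gstm1, a glutathione transferase, stood at 9342 CPM against 2205 and had a UMI in 98.9% of urothelial nuclei and 85.3% of other nuclei. Gsta4 stood at 2258 against 510, and in the whole group 16 of 23 were higher and 1 lower (Aldh1a3, with 4 UMIs). In these families near-identical copies can share reads, so the split between copies is uncertain. Small secreted and cornified protein genes were higher in 11 of 12 cases: Ly6d, a surface protein of squamous and basal epithelia, stood at 2203 against 472, and Wfdc2, a secreted protease inhibitor family member, at 1666 against 340. Lipid genes were higher in 13 of 19 and lower in 1. The fatty acid elongase Elovl6 stood at 158 against 27.2 CPM, and the scavenger receptor Cd36 at 1.47 against 12.7.

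Other groups stood close to the background of all genes. Retinoid handling genes were higher in 3 of 10 and lower in 2, glycolysis genes in 1 and 1 of 13, and cell cycle genes in 2 and 0 of 8. Immediate-early and stress genes were higher in 4 of 30 and lower in 7, with a median ratio of 0.959. Fosl2, an AP-1 subunit, stood at 366 against 102 CPM, whereas Fosb, another subunit of AP-1, had 3 UMIs in the urothelial nuclei and stood at 32.0 CPM in the other nuclei.

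**Figure D2:**
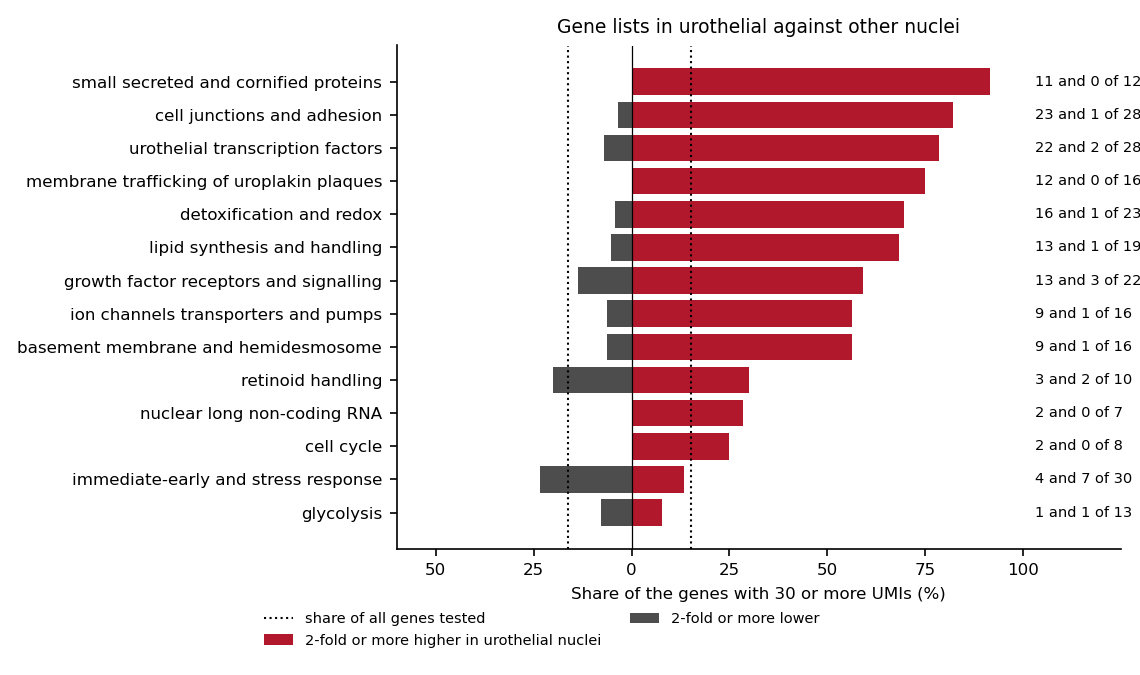
Share of each gene group (genes with 30 or more UMIs) that was 2-fold or more higher (red, to the right) or lower (grey, to the left) in urothelial than in other nuclei, in percent; dotted lines mark the shares over all genes, 15.1% and 16.3%. Numbers at the right give the genes higher, lower and counted: 22 and 2 of 28 for transcription factors, 4 and 7 of 30 for immediate-early genes.

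Whether the leading nuclear genes were also urothelial in libraries that did not choose them was tested in the 5 whole-bladder cell libraries. Urothelial cells were compared with all other cells of the same library, with the library as a block, by edgeR's quasi-likelihood test with Benjamini-Hochberg adjustment. With cells called urothelial at 2% for the 13 genes, the level set for the main test, 39.2% of 13973 genes differed, 13.3% higher and 25.9% lower in urothelial cells. The 1860 genes higher became 906 without the 3-month male and 1037 without the 22-month male library, and 2342, 2746 and 2309 without the first and second 12-month and the 24-month libraries. At that limit 3 of the 15 leading genes were higher: Ocln, Cnksr1 and Cldn8. These 3 calls were lost with library size alone (adjusted p of 0.0541, 0.0799 and 0.057 in that order), with no filter on low counts, with no library block and without the 3-month male library, and DESeq2 called all 15. All 15 were higher in at least 4 of the 5 libraries, and adjusted p ran from 0.0362 to 0.117. The 2% limit was set on the view that whole-cell libraries hold more free urothelial RNA than 0.6%. Cells between 0.6% and 2% count among the other cells at that limit, and in the 24-month library 682 cells passed 2% and 1956 passed 0.6%. Whether the cells between the limits are urothelial was not tested.

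With the limit of 0.6% used for the nuclei, chosen after the data were seen, 15 of 15 leading genes were higher in urothelial cells, beside 35.4% of all 14007 genes that were higher and 35.3% that were lower. Their log2 fold changes ran from 2.32 to 5.33 and their adjusted p was at most 0.000219. Cers3 stood at 26.6, 38.2, 24.2, 34.3 and 27.6 CPM in urothelial cells of the 22-month male, 3-month male, first and second 12-month and 24-month libraries. In the other cells of those libraries it stood at 0.6, 0.5, 1.6, 1.3 and 2.8. No value of either set overlapped the other. Cldn8 showed the same separation, with 25.3 to 45.2 in urothelial and 0.7 to 2.6 in other cells, and St8sia6 with 55.0 to 114 and 4.0 to 15.6.

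By group, the cells gave different counts at the 2% limit, where 13.3% of all genes were higher and 25.9% lower, and at 0.6%, where 35.4% were higher and 35.3% lower. Of the transcription factors 2 of 28 were higher and 4 lower at 2%, a share of higher genes below that of all genes. At 0.6%, 21 of 29 were higher and 5 lower, Irf1 and Gata6 among the latter. Junction genes were higher in 8 and lower in 0 of 30 at 2%, and in 26 and 2 of 30 at 0.6%. Trafficking genes were higher in 3 and lower in 0 of 16, and then in 12 and 2 of 16. Detoxification genes were higher in 13 and lower in 5 of 24, and then in 19 and 5. Small secreted protein genes were higher in 7 and lower in 2 of 19, and then in 16 and 3. Lipid genes were higher in 6 and lower in 3 of 19, and then in 12 and 4. At 2% other groups had as many or more genes lower than higher: 1 higher and 3 lower of 26 growth factor and signalling genes, 3 and 4 of 19 channels and transporters, 0 and 1 of 17 basement membrane genes, and 0 and 6 of 14 retinoid genes. At 0.6% the first 3 of these groups had 17 and 5 of 26, 11 and 6 of 19, and 12 and 3 of 16, while retinoid genes had 4 and 6 of 14. Immediate-early and stress genes, near the background in the nuclei, were higher in 0 and lower in 27 of 40 cases at 2%, and in 3 and 29 at 0.6%. Wnt4, 4.32-fold higher in urothelial than in other nuclei, had a log2 fold change of 0.35 between urothelial and other cells at 0.6% (adjusted p = 0.0633). Fabp4, a fatty acid binding protein, was 3.11-fold higher in urothelial nuclei and lower in urothelial cells at 0.6% (log2 fold change -0.81, adjusted p = 0.00744).

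Urothelial nuclei were then set against urothelial cells, the sum of the nuclei against the 5 sums of cells. Relative to all genes, 30 of 40 immediate-early genes and 17 of 23 detoxification genes were lower in nuclei, and Jag2, Ugt1a6a, several muscle genes and, through 21 nuclei, Meg3 were higher. Of 12986 genes tested, 36.4% differed, 16.3% higher and 20% lower in nuclei (edgeR's quasi-likelihood test, Benjamini-Hochberg). There was 1 nuclei library, assumed to vary like the cell libraries, and nuclear preparation, library and gene list cannot be told apart in this comparison. Scaling to library size alone shifted the median log2 fold change of all genes from -0.01 to 1.16 and put 88.5% of the called genes on the higher side, against 44.9% here. Levels in this comparison are CPM after edgeR's TMM scaling, a trimmed mean correction between libraries, and for the nuclei are lower than the unscaled levels given above.

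The 10 named genes on the low side were Fosl1, Atf3, Fosb, Nr4a1, Hbegf, Krt23, Dusp5, Nr4a3, Socs3 and Fos. Most are transcription factors or feedback regulators that cells switch on within minutes of a stimulus. Atf3, a stress-induced factor, had 2 UMIs in all urothelial nuclei, a scaled level of 0.495, and stood at 1148, 590, 903, 862 and 1017 in urothelial cells of the 22-month male, 3-month male, first and second 12-month and 24-month libraries. The nuclei lay below every cell library, and the ratio of the cells' mean to the nuclei was 1827 (counting interval 506 to 15090; log2 fold change -10.75, adjusted p = 0.00132). Fosb had 3 UMIs, a scaled level of 0.742 in nuclei, against 505, 257, 499, 582 and 567 in the cells (adjusted p = 0.00132).

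Fos, the AP-1 subunit for which this class of genes is best known, had 132 UMIs and a scaled level of 32.7 in nuclei, and 2790, 2429, 1726, 1592 and 1587 in the cells. Its log2 fold change was -5.92 ± 0.64 (SE; adjusted p = 0.00141). Fosl1 had 0 UMIs in the nuclei and 18.3 to 120 scaled CPM in the cells. With 3 UMIs taken as the floor, a scaled 0.742, the nuclei were 106-fold below the cells' mean. The exact upper limit for 0 UMIs was a scaled 0.912. Krt23, a type I keratin, had 14 UMIs and a scaled level of 3.46, against 65.0 to 667 in the cells (adjusted p = 0.0355). In urothelial cells of the detrusor-enriched library, which lists the same genes as the nuclei, Atf3 stood at 466, Fosb at 419 and Fos at 849. The rule for naming these genes required that library to lie nearer the cells than the nuclei, so these values are a description.

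Dusp5, a nuclear phosphatase that switches off the MAP kinase ERK, had 4 UMIs and a scaled level of 0.989 in nuclei, against 82.2, 36.6, 94.1, 101 and 114 in the cells. The nuclei again lay below all 5 cell libraries (log2 fold change -6.38, SE 0.91, adjusted p = 0.00281). The 250 bases before its RefSeq start (GRCm38.p6, chr19:53528895-53529144, plus strand) are shown because it was the only 1 of the 10 genes low in nuclei, 8 of which have a promoter in the table, to hold a CArG box there. That is the motif of serum response factor, searched on both strands. Capitals mark a pair of adjacent CArG boxes, which end 72 and 62 bases before the start, and 1.47% of 32851 promoter windows of this build hold at least 1 such box. The AP-1 letters TGANTCA, searched on both strands, were in 0 of the 8 windows and in 6.75% of all. Of the 10 genes named as higher in nuclei, 2 held a CArG box (Acta1 and Meg3) and 3 the AP-1 letters (Cald1, Mylk and Ugt1a6a). Such matches describe a window and are not sites of binding.
Dusp5: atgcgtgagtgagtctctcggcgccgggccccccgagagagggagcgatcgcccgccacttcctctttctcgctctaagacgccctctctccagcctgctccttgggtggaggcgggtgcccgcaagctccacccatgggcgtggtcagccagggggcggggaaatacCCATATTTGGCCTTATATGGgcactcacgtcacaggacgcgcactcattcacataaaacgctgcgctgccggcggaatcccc

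As a group, 30 of 40 immediate-early and stress genes were lower in nuclei than in urothelial cells and 0 were higher, with a median log2 fold change of -3.69. With library size alone 21 were lower and 2 higher. The group is one that earlier results of these data had already brought forward, so its direction is not independent evidence. Other groups also had low medians: 17 of 23 detoxification genes were lower and 0 higher (median -2.63; 7 lower and 1 higher with library size alone). Gstm1 stood at a scaled 4714 in nuclei and 45450 to 59441 in cells (log2 fold change -3.47 ± 0.45, adjusted p = 0.0022). Of 19 small secreted protein genes 11 were lower and 0 higher, and of 78 ribosomal protein genes 23 were lower and 0 higher (median -2.98). With the 12-month cell libraries only, the age of the nuclei, the median of the 78 ribosomal protein genes was -3.45, beside 0.049 for all genes. That setting also left out the male libraries, so age cannot be told apart from their barcode length and gene list. Cldn4 was lower with a log2 fold change of -3.57 (adjusted p = 0.00634) and Aqp3 with -2.16 (adjusted p = 0.00403), both of which were high against other nuclei. With library size alone Cldn4 kept its call (-2.30, adjusted p = 0.0034) and Aqp3 did not (-0.96, adjusted p = 0.0736).

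The 10 named genes on the high side were Acta1, Meg3, Synm, Ugt1a6a, Cald1, Ckb, Mylk, Jag2, Tnnt2 and Pibf1. Of these, 6 were higher in other and in muscle-rich nuclei than in urothelial nuclei (Acta1, Synm, Cald1, Ckb, Mylk and Tnnt2). In unscaled CPM Acta1, a striated muscle actin, stood at 148 in urothelial, 1003 in other and 2294 in muscle-rich nuclei. The smooth muscle marker list moved with them: it stood at a scaled 2463 in urothelial nuclei and at 25.1 to 263 in urothelial cells, with 9 of 11 genes tested higher. Of these 9, 5 are muscle genes that the rule used to choose nuclei and cells, and 4 of the 5 tested outside the rule were higher. The part of muscle RNA in these 6 differences was not tested. Blood endothelial markers also stood higher in the nuclei, at 44.5 against 11.5 to 16.4, as did lymphatic endothelial markers, at 11.9 against 0.776 to 3.26, and pericyte markers, at 97.0 against 25.03 to 91.9. By the test 5 of 8 blood endothelial, 0 of 3 lymphatic endothelial and 2 of 5 pericyte genes were higher, whereas fibroblast markers summed to 826 against 1069 to 5258. By the test, 1 of 10 fibroblast genes was lower and 0 were higher, and with the 12-month libraries only 1 was lower and 1 higher (median log2 fold change 0.44).

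Jag2, Ugt1a6a and Meg3 were higher in nuclei than in cells and were not higher in muscle-rich nuclei. Jag2 stood at a scaled 130 in urothelial nuclei and at 15.9, 18.1, 9.38, 6.36 and 10.5 in the 5 cell libraries, all below the nuclei (log2 fold change 3.48 ± 0.43, adjusted p = 0.00203). In unscaled CPM it stood at 258 in urothelial, 52.9 in other and 15.6 in muscle-rich nuclei. Ugt1a6a, a glucuronosyltransferase, stood at a scaled 169 in nuclei and 3.58 to 18.4 in cells (log2 fold change 3.95, adjusted p = 0.00548), and unscaled at 335, 81.7 and 3.90 in the 3 sets of nuclei. It shares its last exons with other Ugt1a genes, so its own count is uncertain. Pibf1, a centrosomal protein, stood at 72.2 in nuclei and 5.16 to 8.23 in cells (adjusted p = 0.00132).

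Meg3, a maternally expressed long non-coding RNA of the nucleus, had 1656 UMIs in urothelial nuclei and a scaled level of 410, against 30.8, 3.38, 5.98, 2.95 and 10.5 in the 5 cell libraries. Every cell library lay below the nuclei, with an edgeR log2 fold change of 5.30 (SE 0.99) and an adjusted p of 0.00914. The call rested on 21 nuclei with 5 or more Meg3 UMIs, described below. The other 995 nuclei had 100 Meg3 UMIs, a scaled level of 25.6 that lies within the range of the cells, and without the 21, an alternative chosen after seeing the data, the log2 fold change was 1.30 (adjusted p = 0.42 by edgeR). Among all nuclear long non-coding RNAs tested, 3 of 8 were higher (Meg3, Kcnq1ot1 and Ftx) and 0 lower, with a median log2 fold change of 2.13 (7 higher with library size alone). Other groups were closer to the median of all genes. Transcription factors were higher in 4 and lower in 3 of 28 (median 0.06; 14 and 2 with library size alone), with Trp63 at 1.09 (adjusted p = 0.0264) and Foxq1 at -1.42 (adjusted p = 0.0126). With library size alone Foxq1 stood at -0.24 and its call was lost (adjusted p = 0.656). Basement membrane and hemidesmosome genes were higher in 6 and lower in 1 of 17 (median 0.72; 13 and 0 with library size alone). Dst, which ties keratin to hemidesmosomes, stood at a scaled 580 in nuclei and 92.1 to 151 in cells (adjusted p = 0.00141).

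**Figure D3:**
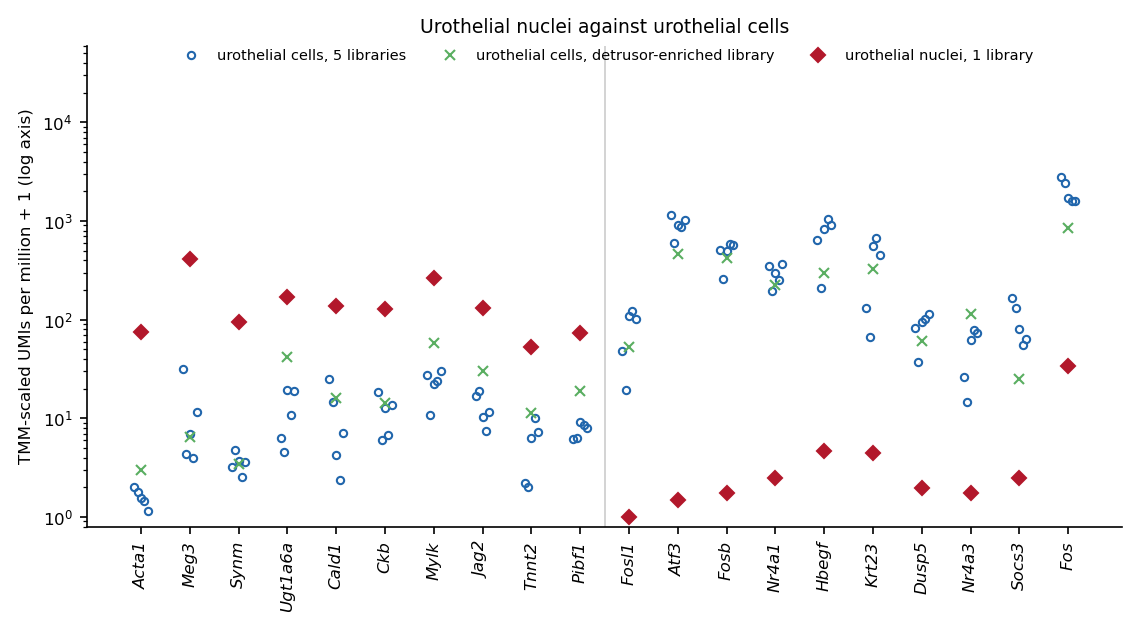
TMM-scaled CPM plus 1 (log axis) of the 10 named genes higher (left) and 10 lower (right) in urothelial nuclei (red diamond, 1 library) than in urothelial cells (blue circles, 5 libraries); green crosses are urothelial cells of the detrusor-enriched library, which was in no test. The nuclei lie outside the range of the 5 libraries for each gene, which the naming rule required.

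The difference between nuclei and cells changed with the length of the gene. Genes tested were split into 5 groups of equal size by the span from first to last base of the gene in the RefSeq table, with a span found for 97.8% of them. In the shortest group, 0.309 to 7.63 kb, the median log2 fold change was -1.47, with 37.6% lower and 3.47% higher in nuclei. Through the next 3 groups the median was -0.61, -0.17 and 0.38. In the longest group, 68.2 to 2390 kb, the median was 1.00, with 4.73% lower and 35.4% higher. Spearman's rho of fold change with span was 0.476 across genes, which are not independent replicates. The 10 genes named as lower had a median span of 11.8 kb and the 10 named as higher 30.2 kb. The part of span in the differences of single genes was not tested.

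The bulk libraries give a comparison of dissociated with intact bladder for the same genes. Each holds the whole bladder, so fewer cells of a type and less RNA per cell cannot be told apart. Across 16538 genes 59.2% differed (edgeR's quasi-likelihood test), 27.9% higher and 31.3% lower after dissociation. The 10 genes named as lower in nuclei were all higher in dissociated bladder, with log2 fold changes of 3.80 to 9.47 and adjusted p of at most 4.34e-05. Fosb stood at 7.82, 1.15 and 6.68 TMM-scaled CPM in the intact libraries and at 4050, 2823 and 3303 in the dissociated ones. Atf3 stood at 4.31, 2.76 and 9.15 against 1117, 942 and 957, and Dusp5 at 5.54, 4.46 and 8.78 against 64.9, 89.9 and 98.0. The groups did not overlap for Fosb, Atf3 or Dusp5, and the whole immediate-early group was higher in 41 of 41 genes (median log2 fold change 4.40).

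Of the genes named as higher in nuclei, 0 of 10 were higher after dissociation and 9 were lower. Smooth muscle markers fell too, in 12 of 12 genes with a median log2 fold change of -3.66. Fibroblast markers rose in 10 of 10 genes (median 1.27) and blood endothelial markers in 8 of 8 (0.92). Macrophage markers rose in 7 of 7 (0.53) and lymphatic endothelial markers in 5 of 5 (0.97), while pericyte markers rose in 2 and fell in 4 of 6. Mylk, the kinase that starts smooth muscle contraction, fell from 5106 ± 159 to 424 ± 61.1 (SD, n = 3 in each group; adjusted p = 1.55e-06 by edgeR). Jag2 stood at 92.8, 75.9 and 107 in intact and 55.2, 48.0 and 71.9 in dissociated bladder (log2 fold change -0.63, adjusted p = 0.0172). The Jag2 call was lost without dissociated replicate 1, without dissociated replicate 2 and without intact replicate 3 (adjusted p = 0.0646, 0.0515 and 0.0556 by edgeR). Meg3 stood at 197, 204 and 208 against 156, 128 and 124 in the same order (log2 fold change -0.56, adjusted p = 0.00216). Pibf1 did not pass the test (log2 fold change 0.37, adjusted p = 0.0572). Detoxification genes, low in the nuclei, were higher in 4 and lower in 6 of 24 in bulk, with a median of 0.10. Gstm1 stood at 7507 ± 613 in intact and 5977 ± 1190 in dissociated bladder (SD, n = 3; adjusted p = 0.123 by edgeR).

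**Figure D4:**
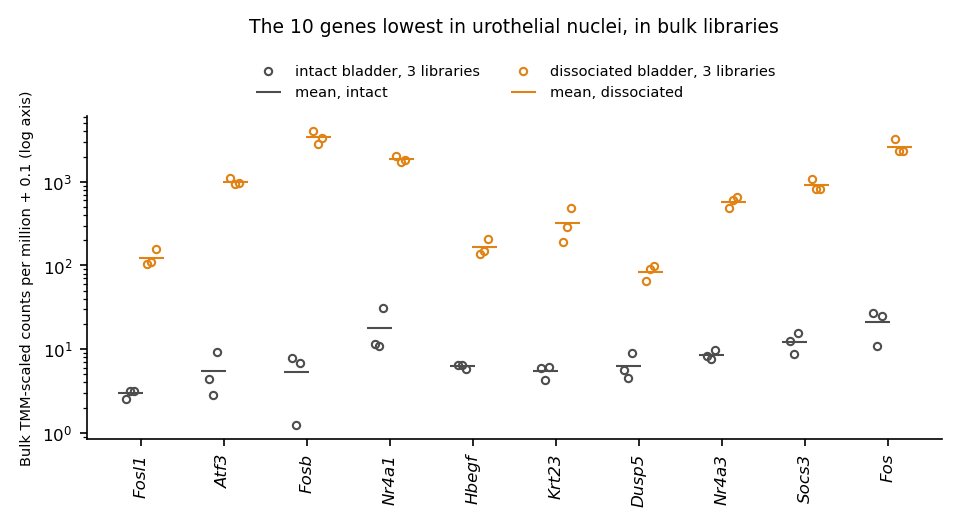
TMM-scaled CPM plus 0.1 (log axis) of the 10 genes named as lower in urothelial nuclei, in 3 intact (grey) and 3 dissociated (orange) bulk bladder libraries; lines are group means. For Fosb the dissociated libraries lie at 2823 to 4050 and the intact ones at 1.15 to 7.82.

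Within the urothelial nuclei, most carried RNA of both ends of the epithelium. Of 1016 nuclei, 825 (81.2%) had a UMI of a uroplakin (Upk1a, Upk1b, Upk2 or Upk3a) and a UMI of Krt5 or Krt15. A uroplakin without either basal keratin was found in 119 (11.7%), a basal keratin without a uroplakin in 68 (6.69%), and neither in 4. Depth sets these shares: with every nucleus thinned to 500 UMIs they became 452 with both, 277 uroplakin only, 216 basal keratin only and 71 with neither. The classes are ranges of a count and not cell types. RNA of the rule genes was also found in muscle-rich nuclei, as given above, and the part of such RNA in these classes was not tested.

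In summed counts, Snx31, Fabp4 and Rab27b stood higher in the uroplakin-only nuclei, and Col17a1, Shh and Trp63 in the basal-keratin-only nuclei. No test was made, because there is 1 library. Of 2647 genes with 20 or more UMIs, 9.1% were 2-fold or more higher and 7.78% were 2-fold or more lower on the uroplakin side. Snx31 had 115 UMIs on the uroplakin side and 15 on the basal side, a CPM ratio of 2.82 (1.64 to 5.20). Fabp4 had 152 and 10, a ratio of 5.58 (2.95 to 11.9). Rab27b had 108 and 10, a ratio of 3.97, and Krt8 and Krt18, a keratin pair of simple and luminal epithelia, had ratios of 1.73 and 1.49. Krt8 and Krt18 are genes of the rule. The rule keratins Krt7 and Krt19 went the other way, with ratios of 0.75 (0.60 to 0.94) and 0.83 (0.64 to 1.08). The trafficking group of Snx31 and Rab27b was mixed. In it Vamp8 had a ratio of 0.47 (0.26 to 0.88) and Mal 0.79 (0.58 to 1.10), against 1.37 (0.89 to 2.19) for Sytl2 and 1.78 (0.72 to 5.23) for Rab25. With thinned nuclei, sorted again by their thinned counts, the ratios were smaller: 1.98 for Snx31, 2.17 for Fabp4, 1.43 for Rab27b (57 and 31 UMIs) and 1.40 for both Krt8 and Krt18. A set of 8 of the 119 uroplakin-only nuclei, those with 5 or more UMIs of Meg3 described below, held 107 of the 152 Fabp4 UMIs and 50 of the 115 of Snx31. Without them, an alternative chosen after seeing the data, the ratio was 1.97 (0.98 to 4.39) for Fabp4, 1.90 (1.07 to 3.59) for Snx31 and 3.55 for Rab27b. For Krt8 it was then 1.56 (1.11 to 2.24) and for Krt18 1.28 (0.98 to 1.70).

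On the basal side, Col17a1, the hemidesmosomal collagen, was 4.67-fold higher (1.69 to 14.0), Shh 2.30-fold and Trp63 1.66-fold. After thinning these were 3.85-fold, 2.36-fold and 1.15-fold. Among genes with 20 or more UMIs, a minimum that Col17a1 with 19 did not reach, the 8 with the highest basal ratio were Cbr2, Jag2, Pla2g7, Thbs1, Cct8, Bri3, Dnajc2 and Gsdmc2. Cbr2, a carbonyl reductase, had 40 UMIs on the basal and 16 on the uroplakin side, 6.81-fold (3.73 to 13.02). Jag2 had 31 and 15, 5.63-fold (2.95 to 11.2). After thinning Cbr2 was 2.34-fold and Jag2 1.49-fold higher on the basal side, the latter with 29 and 25 UMIs. Pla2g7, a lipid-cleaving enzyme, then had 12 UMIs on each side. Thbs1, a matrix glycoprotein, had 17 and 10 before thinning and 32 and 19 after.

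By the same minimum and with 1 UMI added to each sum, the 8 genes with the highest uroplakin ratio were Meg3, Snhg11, Unc13c, Fut9, Ksr2, Sqle, Plce1 and Scube2. Of these, Unc13c, Fut9, Ksr2, Sqle and Scube2 had 0 UMIs on the basal side. Against a floor of 3 UMIs these were 2.45-fold (Scube2) to 3.43-fold (Unc13c) higher, below Fabp4 at 5.58 and Rab27b at 3.97. The exact lower limits were 1.81 for Scube2 and 2.61 for Unc13c. Meg3 had 899 UMIs in the uroplakin-only and 2 in the basal-keratin-only nuclei, a ratio of 165 (45.6 to 1366). Snhg11, another long non-coding RNA, had 465 and 5, a ratio of 34.2 (14.5 to 106). After thinning, Meg3 had 182 and 5 UMIs and Snhg11 139 and 20. These ratios rest largely on the 8 nuclei with 5 or more Meg3 UMIs, which held 890 of the 899 Meg3 and 277 of the 465 Snhg11 UMIs. Without the 8, Meg3 had 9 UMIs and 2, a ratio of 1.97 (0.408 to 18.8), and Snhg11 188 and 5, a ratio of 16.5 (6.94 to 51.3). Unc13c, a vesicle priming protein, had 28 UMIs and 0, 3.43-fold higher against a floor of 3 UMIs, and the fucosyltransferase gene Fut9 had 23 and 0. Sqle, an enzyme of cholesterol synthesis, had 22 and 0, and Plce1, a phospholipase C, 41 and 1. The 8 nuclei held 17 of the 28 Unc13c UMIs, 11 of 23 for Fut9, 3 of 22 for Sqle and 20 of 41 for Plce1. They also held 14 of 23 for Ksr2 and 10 of 20 for Scube2. Without them, against the floor of 3 UMIs, the folds were 1.61 for Unc13c, 1.31 for Ksr2, 1.46 for Scube2, 1.75 for Fut9 and 2.78 for Sqle. Plce1 then had a ratio of 9.20 (1.48 to 381).

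Meg3 RNA was concentrated in few nuclei. It had a UMI in 95 urothelial nuclei (9.35%; 5.22% after thinning), against 20.7% of other nuclei (12.3% after thinning), yet its summed level was 2.01-fold higher in urothelial nuclei. With a limit of 5 UMIs, chosen after the values were seen, 21 urothelial nuclei held 1556 of the 1656 Meg3 UMIs (94.0%). Their counts ran from 5 to 354 with a median of 31. The other 74 nuclei with Meg3 had 1 to 4 UMIs, and 921 had 0. The median depth was 1783 UMIs in the 21 and 1434 in the 921. A doublet caller (Scrublet) scored the 21 at a median of 0.039 and the 921 at 0.057, and it placed 1 of the 21 and 22 of the 921 among the barcodes left out as doublets. The muscle share had a median of 0.575% and 0.513%. Dcn, a fibroblast gene, stood at 329 CPM in the 21, at 357 in the 921, and at 3601 in 61 other nuclei that had 5 or more Meg3 UMIs.

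The 21 nuclei carried umbrella RNA and little basal RNA. All 21 had a uroplakin UMI (exact interval 83.9 to 100%), as did 851 of the 921 (92.4%, 90.5 to 94.0%), and 13 (61.9%, exact interval 38.4 to 81.9%) had a Krt5 or Krt15 UMI, against 816 of 921 (88.6%, 86.4 to 90.6%) without Meg3. Upk1b stood 3.85-fold higher (3.26 to 4.52) than in the 921, Upk2 2.57-fold, Upk1a 1.99-fold and Upk3a 1.74-fold. Krt20, the keratin of umbrella cells, had a UMI in 11 of 21 against 53 of 921 and stood 7.27-fold higher (3.98 to 12.6). Krt15 stood 8.69-fold lower (5.42 to 14.9), Krt5 6.61-fold and Trp63 3.31-fold lower. These ratios cover counting error only. The 4 uroplakins, Krt5 and Krt15 are genes of the rule, whereas Krt20 and Trp63 are not.

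Beyond the rule genes, the genes below were picked after their values were seen. Snhg11 had a UMI in 20 of the 21 nuclei, with a median of 11, against 260 of 921, and its level was 16.2-fold higher (14.6 to 18.1). Fabp4 was 13.2-fold higher with a UMI in 18 of 21, and Pparg 3.38-fold higher. Unc13c was 21.1-fold higher. Among the 15 leading genes, Ksr2 had 24 UMIs in the 21 and 44 in the 921, and Cyp3a57 had 21 and 54. The rest of the 15 were not split this way. Mirg, an RNA transcribed from the same imprinted cluster as Meg3, had a UMI in 8 of 21 against 3 of 921. Ugt1a6a had 0 UMIs in the 21 and 640 in the 921, 8.18-fold lower with 3 UMIs taken as the floor. Shh had a UMI in 1 of 21 against 295 of 921. Aqp3 was 5.91-fold lower (3.10 to 12.9). Among the 921 nuclei with 0 Meg3 UMIs the Snhg11 count reached 25.

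**Figure D5:**
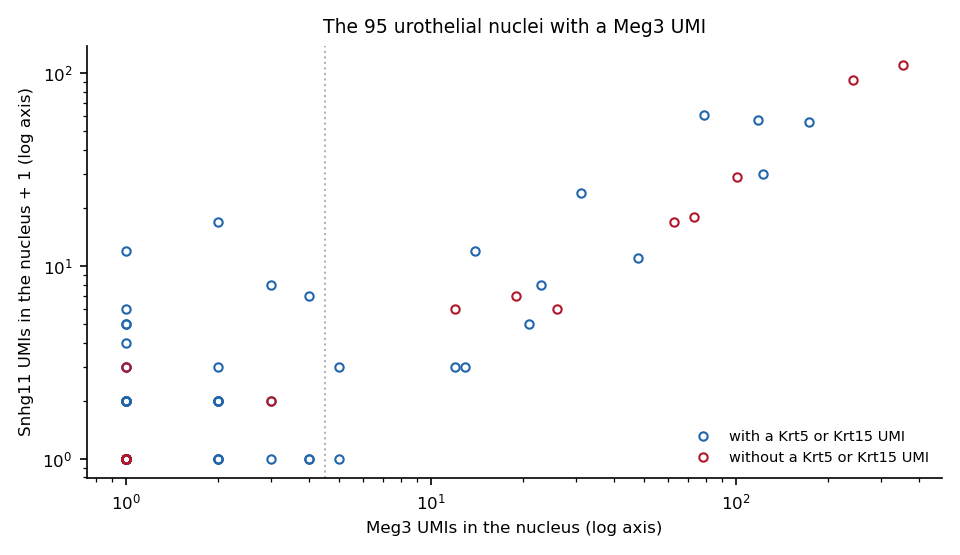
Meg3 UMIs (log axis) against Snhg11 UMIs plus 1 (log axis) in each of the 95 urothelial nuclei with a Meg3 UMI; blue nuclei have a Krt5 or Krt15 UMI, red ones do not, and the dotted line marks the limit of 5 Meg3 UMIs. The nucleus with 354 Meg3 UMIs also has the most Snhg11, 109 UMIs.

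A promoter window of Meg3 is shown because Meg3 set these nuclei apart. Meg3 has 2 RefSeq starts, and the window shown is the only 1 of them with a match to TGACGTCA. It spans the 250 bases before that start (GRCm38.p6, chr12:109540746-109540995, plus strand). Capitals mark the single match to TGACGTCA, the letters bound by cyclic AMP response element factors, which ends 49 bases before the start. Of 32851 promoter windows, 1.55% hold these letters on either strand. A match is a description of the window and not a site of binding.
Meg3: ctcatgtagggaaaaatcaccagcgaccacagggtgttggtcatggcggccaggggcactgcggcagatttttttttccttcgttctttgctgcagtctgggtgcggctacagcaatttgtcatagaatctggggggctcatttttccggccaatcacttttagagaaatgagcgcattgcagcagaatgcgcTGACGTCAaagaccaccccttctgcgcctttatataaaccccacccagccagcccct

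Cells with comparable Meg3 counts were rare in the whole-cell libraries. At the 0.6% limit, 4 of 1218 urothelial cells in the 22-month male library had 5 or more Meg3 UMIs, 0 of 1577 in the 3-month male, 4 of 2192 and 1 of 736 in the 12-month, and 4 of 1956 in the 24-month library. All of these cells had a uroplakin UMI, but uroplakins are among the genes that chose them, so this is a description. The share among the remaining urothelial cells is not given here. The highest Meg3 count was 36. At the 2% limit the numbers with 5 or more were 4, 0, 3, 0 and 2 in the same order. Of the nuclei, 21 of 1016 reached 5. The cells of these 5 libraries were deeper than the nuclei, with medians of 3194 to 18427 UMIs, and the difference in shares was not tested. In the detrusor-enriched library 8 of 1274 barcodes at the 0.6% limit had 5 or more, none of which reached the 2% limit that 100 of the 1274 passed. The 1274 had a median of 667.5 UMIs, below that of the urothelial nuclei, whereas all barcodes of that library had a median of 6959. The highest of these had 610 Meg3 UMIs, and the 8 together had 216 Snhg11 UMIs. Over all cells at 0.6%, Meg3 was lower in urothelial than in other cells in 5 of 5 libraries (log2 fold change -5.47, adjusted p = 0.000213 by edgeR).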

How the data were processed

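UMI counts per gene and barcode of 1 nuclei and 6 cell libraries and read counts per gene of 6 bulk libraries were read as deposited by the authors. Per the submitters' processing notes, bcl2fastq, Cell Ranger, Subread, featureCounts and mm10 were used. The authors' bulk counts came from polyA-selected RNA, per the labels' protocols. Versions are not given in the sources used here. The table of the detrusor library of females alone and the sections were not used here. Members, gene lists and tests were chosen with earlier results of these data known.

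Barcodes with 500 or more UMIs were kept, cells also at 20% mitochondrial counts or less. Cells were called urothelial at 2% or more for the 13 genes, under 2% for the muscle genes, and with 5 collagen and matrix genes below the 13-gene share. Counts were summed per library. Sums of nuclei were compared with exact intervals at 95% confidence that cover counting error only, with a floor of 3 UMIs where a count was 0. Sums of libraries were tested with edgeR 4.0.16 (R 4.3.3; TMM, filterByExpr, robust quasi-likelihood, two-sided, adjusted p under 0.05) over all genes. Where replicates are only separate libraries, p-values measure the spread between libraries. On simulated data with 200 genes changed 4-fold, 83.5% were recovered for nuclei against cells (12986 genes), 100% for urothelial against other cells (13973 genes) and 100% for bulk (16538 genes). Unchanged genes called numbered 17, 4 and 9 in that order. The simulation gave every gene the same dispersion and every library the same gene proportions, and changed only well-counted genes. Its recovery therefore does not measure that of the real tests. Doublets were kept, and removed in an alternative (Scrublet in scanpy 1.11.5).

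Named genes were the 15 highest and 5 lowest ratios in nuclei, the 10 largest fold changes each way against cells that did not overlap and had a mean of at least 10 CPM, 8 on each side within the nuclei, and 2 to 4 per list. For genes against cells, the detrusor-enriched library had to lie nearer the cells, since gene lists differ (31053 genes in nuclei, 27775 or 27998 in cells). This removed 590 of 1268 eligible higher and 479 of 2302 lower genes. Symbols with a span were looked up in RefSeq, GRCm38.p6. Cell libraries held 1021 to 9080 barcodes and 13281422 to 55374101 UMIs, and bulk libraries 23083752 to 68760791 counts.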

Additional observations from a re-analysis of the deposited data

Results flagged for a closer look

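The 20 genes named for nuclei against cells were checked over the 5 cell libraries for a library that stood apart from the others, which chance gives for about 1 gene in 20. In 2 of them a library did. Meg3 stood at 30.77 TMM-scaled CPM in urothelial cells of the 22-month male library, with the next library at 10.49 and the lowest at 2.95. Fosb stood at 256.7 in the 3-month male library, with the next at 498.9 and the highest at 582.5. The nuclei, at 410 for Meg3 and 0.742 for Fosb, lay outside the range of the cells with or without these libraries. Without the 21 nuclei of 5 or more Meg3 UMIs, the nuclei stood at 25.6 for Meg3, below the 22-month male library and above the other 4. The cause was not tested.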

How the results depend on the processing

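The number of urothelial nuclei was 693 with a minimum of 1000 UMIs, 555 at 1% for the 13 genes, 787 with muscle genes under 1%, 990 without doublets and 1264 at 0.4% (added after seeing the data). Genes 2-fold or more higher in these nuclei numbered 1730, and 1185 to 1818 over the alternatives. The uroplakin-only share went from 11.7% to 27.3% after thinning, by its construction. Genes that differed between nuclei and cells numbered 4724, 7500 with mixed-sex libraries only, and 3599 to 4867 leaving out each cell library. Immediate-early genes lower in nuclei numbered 30, and 27 to 30 leaving out each library. For urothelial against other cells, 5475 genes differed, 9904 at 0.6% and 2606 with no replicate block, and 3896 to 5980 leaving out each library; the lowest counts were without the 3-month male and without the 22-month male library (3910). The higher side held 34% of these calls, 50.1% at 0.6%, 45.2% with DESeq2, 20.1% without the block, 11.2% with library size alone and 23.3 to 45.9% leaving out each library. Of the 15 leading genes 3 were higher in cells, 15 with DESeq2, 15 at 0.6%, 0 with library size alone, 0 with no filter on low counts and 0 with no replicate block. Leaving out each library gave 0 to 7: 0 without the 3-month male, 1 without the 22-month male, 6 without the 24-month and 6 or 7 without either 12-month library. The cause was not tested. For bulk, 9798 genes differed, 10118 with the replicate number as a block and 8128 to 9782 leaving out each library. Between intact and dissociated bulk libraries of the same replicate number, correlations were 0.295, 0.39 and -0.057. Between those of different replicate numbers, correlations ran from -0.525 to 0.314. Whether the replicate numbers pair the samples was not tested. The higher side held 47.2% of bulk calls and 38.3% with library size alone. The 20 genes named for nuclei against cells, there and in bulk, and the 15 leading genes in cells kept their sign in the alternatives run. With library size alone, nuclei against cells went from 2121 higher and 2603 lower to 4728 higher and 612 lower, and glycolysis genes from 1 higher and 7 lower to 2 and 0. Of those 20 genes, Cald1 and Krt23 lost significance in some alternatives (adjusted p 0.0508 to 0.0779), and Meg3 without the 21 nuclei rich in it (0.42). Of the group genes printed, Foxq1, Aqp3, Aldoa and Ldha lost it with library size alone and Cdkn1b with cells at 0.6%, and in bulk Jag2 did in 3 of the settings that leave out a library (0.0515 to 0.0646). The 4% limit for cells was not run, since 3 of 5 libraries kept 8, 10 and 1 cells. Median depth of 1434.5 UMIs limits what can be called absent in a nucleus.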

Other observations

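Beyond the groups above, most glycolysis genes were lower in urothelial nuclei than in urothelial cells with TMM scaling, but not with library size alone. Of 13 glycolysis genes 7 were lower in nuclei and 1 higher by edgeR's quasi-likelihood test (2 higher and 0 lower with library size alone), beside 20% of all genes that were lower and 16.3% that were higher, with Aldoa at a log2 fold change of -2.86 and Ldha at -2.90. With library size alone these were -1.73 and -1.81, and the calls were lost (adjusted p = 0.0655 and 0.11). Some members were barely counted in the male libraries: in urothelial cells at 0.6%, Gapdh stood at 1.34 CPM in the 22-month and 2.25 in the 3-month male library against 616 to 658 in the other 3, and Pgam1 at 0.764 and 1.84 against 128 to 139. The male libraries also differ from the other 3 in barcode length, gene list and depth, so sex cannot be told apart from these. The cause was not tested. Of 11 cell cycle genes 2 were lower and 1 higher, which is no more than the share of all genes. Cdkn1a, a cyclin kinase inhibitor, had a log2 fold change of -3.77, and Cdkn1b, a related inhibitor, 2.16 (adjusted p = 0.0298, and 0.0506 with cells at 0.6%).

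The 21 nuclei rich in Meg3 also held RNA of 2 genes of cell division, picked after their values were seen. Kif23, a motor protein of cytokinesis, had 38 UMIs in the 21 and 47 in the 921 nuclei without Meg3, a CPM ratio of 21.1 (13.4 to 33.1). Cenpf, a kinetochore protein, had 20 and 12, a ratio of 43.5 (20.2 to 97.6). Mki67 had 1 UMI in the 21 and 8 in the 921, and Top2a 0 and 10. These counts come from 1 library and have no replicate.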
